A study of Homo sapiens with 12 samples.

Results

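Genes that set both carcinoma lines of the MCF10 series apart from both precursor lines were read from bulk RNA-seq of 4 human breast epithelial cell lines. The precursor pair was MCF10A, an immortalised non-tumorigenic line, and MCF10AT1, obtained from it with an activated HRAS. The carcinoma pair was MCF10DCIS, which stands for ductal carcinoma in situ, with the metastatic line MCF10CA1a. Both belong to the HRAS-transformed branch of the series. Per the labels, 3 libraries were made from each line, 12 in all, and all lines were cultured alike, with hydrocortisone, EGF, insulin and cholera toxin beside horse serum in the medium. Each stage is 1 cell line, so a stage and the particular history of its line cannot be told apart. The deposited values are 1 mean TPM (transcript abundance scaled to the same total in every column) per line. They carry no error, so no difference here was set against the spread between libraries and none has a p-value; the depth is unknown.

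A gene was counted as higher when the lower of its 2 carcinoma values exceeded the higher of its 2 precursor values by at least 1 on the log2(TPM + 1) scale, which is a 2-fold difference of TPM + 1. The mirror case was counted as lower. That distance between the nearer lines is called the gap below and is negative for lower genes; it understates the difference of genes with few TPM. Of 59427 gene symbols, 13108 reached 1 TPM in at least 1 line and were examined. Of these 125 were higher (0.954%) and 173 lower (1.32%), 298 genes in all (2.27%). The 4 values of a gene are given throughout in the order MCF10A, MCF10AT1, MCF10DCIS, MCF10CA1a.

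Activated RAS drives the ERK kinase cascade, which induces transcription factors, ligands of the EGF receptor and its own feedback inhibitors. NF-kB and AP-1 factors induce interleukins and chemokines in epithelial cells. Mammary epithelium is layered into luminal cells and basal or myoepithelial cells, and MCF10A cells in culture carry features of both. Glucocorticoids such as hydrocortisone act through a nuclear receptor that induces a well-known set of genes.

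All 4 lines expressed epithelial genes, but not these alone. CDH1 was 149, 21.3, 42.3 and 51.9 TPM, lowest in MCF10AT1. The mesenchymal gene VIM was 4.56, 516, 213 and 74.1 TPM, highest in MCF10AT1. KRT8 was 942, 397, 393 and 661 TPM, KRT18 766, 523, 684 and 977 TPM, and EPCAM 86.1, 37.6, 70.5 and 148 TPM. The luminal keratin gene KRT19 was low, at 5.76, 0.419, 0.688 and 0.616 TPM. Of the marker lists for other cell types, 6 of 17 leukocyte, 4 of 12 fibroblast, 1 of 10 endothelial, 3 of 8 adipocyte and 4 of 10 neural genes reached 1 TPM in any line. The leukocyte genes CD3D and PTPRC were among the members near 0, at 0 and at no more than 0.0128 TPM. So were the fibroblast genes COL1A2 and COL3A1, at no more than 0.0408 and 0.0491 TPM. Some other members of the lists were not near 0. Fibroblast markers summed to 16.9, 149, 3.73 and 4.50 TPM, of which DCN gave most in MCF10AT1 and FAP most in MCF10A. Leukocyte markers summed to 72.2, 40.9, 18.7 and 16.5 TPM and neural markers to 114, 69.1, 36.5 and 43.5 TPM, both higher in the precursor lines. Of the leukocyte genes LCP1 alone was counted, and outside MCF10AT1 other members held most of the leukocyte sum. The part of these marker sums in the results was not tested. In bulk RNA, fewer cells expressing a gene and less RNA per cell cannot be told apart.

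The scale of the values bears on every count. Structural and small non-coding RNAs held between 57.6% of the TPM in MCF10A and 66% in MCF10DCIS. The median difference between the pair means over all examined genes was -0.20 on the log2 scale. After rescaling the TPM without those RNAs, mitochondrially encoded genes and ribosomal protein genes, it was -0.049. On this rescaled TPM 266 genes were higher (2.06%) and 231 lower (1.79%), 497 in all (3.84%), so that 53.5% of the counted genes were higher in place of 41.9%. On both scales 124 genes were higher, out of 125 and 266, and 158 lower, out of 173 and 231. The 1 higher gene without a rescaled value, RNVU1-32, is itself a small nuclear RNA, listed at 0 TPM in both precursor lines and at 2.62 and 2.93 TPM in the carcinoma lines.

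Most gaps were small. The median size was 1.43 for higher and 1.44 for lower genes, 71 of the 125 and 95 of the 173 were under 1.5, and 25 and 35 were at least 2. Just inside the threshold lay ZG16B (gap 1.01) and PGM5P2 (1.00) on the higher side and FGFR1 (-1.01) and RBM3 (-1.0) on the lower. Just outside lay HK2 (0.99) and LGALS3BP (0.98), and AGFG2 (-1.0) and COL6A3 (-1.0). In 50 of the higher genes both precursor lines were under 1 TPM, and 6 of those had at least 10 TPM in both carcinoma lines. Conversely 74 of the lower genes were under 1 TPM in both carcinoma lines, and 9 of those had at least 10 TPM in both precursor lines.

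**Figure D1:**
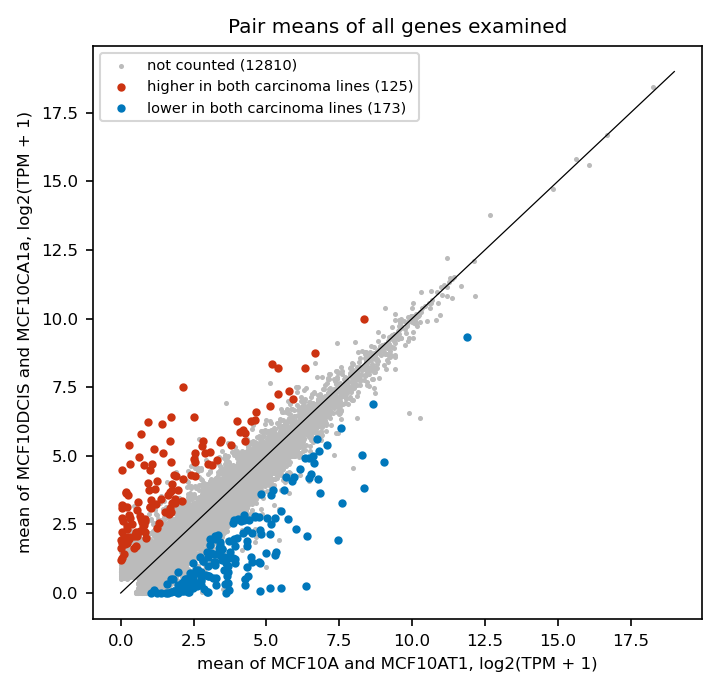
Mean of the carcinoma pair (vertical axis) against the mean of the precursor pair (horizontal axis), both in log2(TPM + 1), for the 13108 genes examined; each point is a gene and the line marks equal values. The 125 higher genes (red) lie mostly at low precursor levels, and the 173 lower genes (blue) reach up to FTH1, the most abundant of them.

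Most genes of largest gap on the higher side were under 3 TPM in both precursor lines; PLAT in MCF10AT1 and CAPS and CALB2 in MCF10A were above that. BST2 encodes tetherin, a membrane protein that holds budding virus particles, and was 0.831, 0.977, 67.0 and 83.2 TPM (gap 5.10). PRSS21, a membrane-anchored serine protease, was 0.0488, 0.0338, 21.6 and 21.6 TPM (gap 4.43). CYB5R2, a cytochrome b5 reductase, was 0.791, 0.363, 29 and 31.8 TPM. In these 3 genes the lines of a pair were close to each other and far from the other pair. CAPS, which encodes the calcium-binding protein calcyphosine, was 3.33, 1.54, 65.7 and 106 TPM, and CALB2, which encodes calretinin, 8.79, 2.35, 71.0 and 99.3 TPM. The selenoprotein gene GPX2, a glutathione peroxidase, was 0.150, 0.300, 16.9 and 97.9 TPM, so its carcinoma lines also differed from each other. TRPV4, a calcium-permeable channel, was 1.28, 0.676, 14.6 and 10.7 TPM. At least 10 TPM in both carcinoma lines was reached by 56 of the 125 higher genes, while 53 did not reach 10 TPM in any line.

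**Figure D2:**
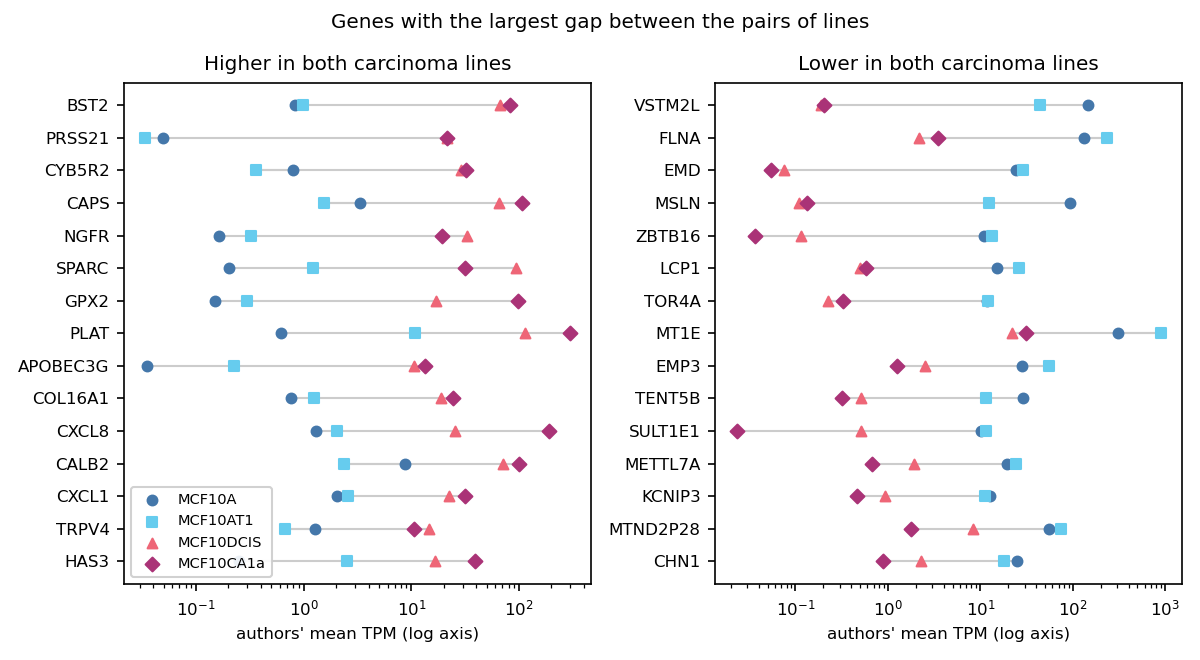
Mean TPM (log axis) in each of the 4 lines for the 15 higher (left) and 15 lower (right) genes of largest gap with at least 10 TPM in both lines of the pair that is higher; each symbol is the authors' mean of 1 line and the grey bar joins the 4 values. BST2 lies below 1 TPM in both precursor lines and at 67.0 and 83.2 TPM in the carcinoma lines, and EMD lies at 24.5 and 28.9 TPM in the precursor lines and below 0.1 TPM in the carcinoma lines.

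HRAS, whose activated form was introduced into this branch, was itself among the higher genes at 50.8, 126, 276 and 312 TPM (gap 1.13). MCF10AT1 lay above MCF10A by 1.29 on the log2 scale and below both carcinoma lines. A gene-level value does not separate the introduced from the resident copy. Of 27 examined genes of RAS/ERK output, 5 were higher (18.5%) and 0 lower, against 0.954% and 1.32% of all genes. The list's median difference between pair means was 0.68, against -0.20 over all genes. On the other scalings tried, up to 8 of the 27 were higher. Among feedback inhibitors, the ERK phosphatase gene DUSP6 was 13.4, 42.4, 95.9 and 93.4 TPM (gap 1.12) and SPRY1, which restrains receptor signalling, 1.28, 3.13, 7.58 and 15.4 TPM (gap 1.05). Both showed the order MCF10A, MCF10AT1, carcinoma lines. IER3, an immediate early gene, was 47.4, 60.0, 133 and 202 TPM. DUSP5 (5.24, 5.72, 12.3 and 26.1 TPM) came just short of the threshold at a gap of 0.98. SPRY4 was 1.73, 6.53, 6.57 and 7.28 TPM and ETV5 7.53, 12.6, 16.7 and 15.8 TPM, where MCF10AT1 lay near the carcinoma lines and the gaps were 0.01 and 0.31.

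Of 14 examined genes of the EGF receptor family and its ligands, 3 ligand genes were higher (21.4%) and 0 genes lower, against 0.954% and 1.32% of all genes. The 3 were higher on every scaling, and EREG and HBEGF also count among the 5 RAS/ERK genes above. EREG was 8.44, 2.67, 25.6 and 42.9 TPM, HBEGF 4.20, 5.16, 13.4 and 58.0 TPM, and TGFA 19.9, 13, 42.5 and 76.0 TPM. Their gaps were 1.49, 1.23 and 1.06, and in EREG and TGFA the lowest value was that of MCF10AT1. The ligand gene AREG was 93.2, 172, 232 and 154 TPM, with MCF10AT1 above MCF10CA1a, and was not counted. EGFR was 49.4, 26.5, 24.2 and 35.0 TPM and ERBB2 28.6, 17.8, 21.1 and 29 TPM. In both receptor genes the pairs overlapped.

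Of 28 examined cytokine and NF-kB target genes, 7 were higher (25%) and 0 lower, against 0.954% and 1.32% of all genes. The list's median difference between pair means was 0.92. On the other scalings up to 9 of the list were higher and up to 1 lower. CXCL8, a chemokine that attracts neutrophils, was 1.31, 2.02, 25.5 and 188 TPM (gap 3.13). CXCL1 was 2.06, 2.58, 22.5 and 31.6 TPM (gap 2.71), and its close paralog CXCL3 0.622, 0.953, 4.42 and 6.67 TPM (gap 1.47). Reads of CXCL1 and CXCL3 may be split between them, which makes the single values uncertain. These chemokine genes and EREG lie within 1 Mb on chromosome 4, where 4 of 7 examined genes from CXCL8 (start 73740506) to EREG (end 74388751, GRCh38) were higher. The stretch was drawn to begin and end at a higher gene, so this share is high by construction. IL1A and IL1B, neighbours on chromosome 2, were 0.813, 3.12, 14.6 and 75.4 TPM and 0.382, 2.51, 9.44 and 135 TPM. MCF10CA1a held the highest value of CXCL8, IL1A and IL1B by a wide margin. LIF, a cytokine of the IL-6 family, was 16.7, 5.80, 46.5 and 47.7 TPM, and NFKB2, an NF-kB subunit, 10.1, 7.77, 24.8 and 30.7 TPM. Not counted were CXCL2 (1.61, 1.94, 2.86 and 9.83 TPM), RELB (2.57, 3.69, 6.61 and 10.2 TPM) and NFKBIA, the NF-kB inhibitor, at 35.9, 30.6, 27.1 and 22.8 TPM. TNF stayed at or below 0.00265 TPM in all lines.

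The IL-1 receptor genes took opposite directions. IL1RAP, the accessory chain, was higher at 3.49, 5.37, 21.1 and 16.3 TPM (gap 1.44). IL1R1, the signalling receptor, was lower at 2.82, 4.06, 0.342 and 0.325 TPM (gap -1.51). The receptor antagonist gene IL1RN was 6.33, 0.662, 1.38 and 2.87 TPM and the pairs overlapped.

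The start regions of chemokine and interferon-type genes on the higher side are shown because these members were higher together and hold letters of a named motif. Being picked for a match, they say nothing about the higher genes as a set. In the wider regions described below, NF-kB letters were in 2.33% of higher and 2.54% of lower genes. For ISRE letters these shares were 4.65% and 5.93%, and for AP-1 letters 9.30% and 7.63%. Each line gives 180 bases before and 10 after the RefSeq start on GRCh38.p14, 5′ to 3′ on the strand of the gene, and capitals mark the matches. They are NF-kB letters (GGGA, 2 bases of any kind, TTCC) in CXCL1 at chr4:73869213-73869402 on the plus strand and CXCL3 at chr4:74038680-74038869 on the minus strand, and AP-1 letters (TGANTCA) in CXCL8 at chr4:73740389-73740578 on the plus strand. Interferon response letters (ISRE: GAAA, 2 bases of any kind, GAAA) are marked in BST2 at chr19:17405621-17405810 on the minus strand, IFITM1 at chr11:313860-314049 on the plus strand and ISG20 at chr15:88638836-88639025 on the plus strand.
CXCL1: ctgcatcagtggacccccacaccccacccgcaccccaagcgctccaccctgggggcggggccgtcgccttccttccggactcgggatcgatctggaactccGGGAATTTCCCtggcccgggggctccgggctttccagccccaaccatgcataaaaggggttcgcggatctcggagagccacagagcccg
CXCL3: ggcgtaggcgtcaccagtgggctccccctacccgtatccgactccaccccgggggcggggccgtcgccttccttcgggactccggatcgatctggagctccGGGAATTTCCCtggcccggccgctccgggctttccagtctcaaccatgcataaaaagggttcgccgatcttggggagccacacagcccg
CXCL8: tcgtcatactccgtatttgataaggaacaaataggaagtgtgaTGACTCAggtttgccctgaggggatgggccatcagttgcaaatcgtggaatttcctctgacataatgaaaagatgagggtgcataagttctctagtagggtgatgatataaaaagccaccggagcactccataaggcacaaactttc
BST2: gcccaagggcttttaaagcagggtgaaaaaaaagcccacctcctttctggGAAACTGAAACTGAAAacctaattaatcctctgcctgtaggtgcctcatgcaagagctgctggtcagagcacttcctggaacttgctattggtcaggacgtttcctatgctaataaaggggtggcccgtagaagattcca
IFITM1: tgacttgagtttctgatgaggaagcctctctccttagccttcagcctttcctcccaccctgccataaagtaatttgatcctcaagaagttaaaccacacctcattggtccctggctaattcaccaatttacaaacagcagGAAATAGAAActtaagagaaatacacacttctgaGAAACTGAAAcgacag
ISG20: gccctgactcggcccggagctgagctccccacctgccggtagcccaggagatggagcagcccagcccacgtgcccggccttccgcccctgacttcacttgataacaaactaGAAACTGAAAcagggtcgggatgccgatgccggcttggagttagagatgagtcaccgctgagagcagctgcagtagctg
In CXCL1 and CXCL3 the match stood at the same place, 79 bases before the start. The 11 capitals hold 1 match on each strand, offset by 1 base. In BST2 2 overlapping matches began 130 and 124 bases before the start. None of the marked letters overlapped a match to another of the 7 motifs searched. In CXCL8 the unmarked bases tggaatttcc differ from the NF-kB letters by 1 base, so the search did not count them.

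Of 28 examined interferon-stimulated genes, 3 were higher (10.7%) and 0 lower, against 0.954% and 1.32% of all genes. On the other scalings 4 of the list were higher. Its median difference of -0.064 was near that of all genes. Beside BST2, IFITM1 was 0.233, 1.97, 9.89 and 22.9 TPM and ISG20, an exonuclease, 1.75, 3.24, 18.4 and 11.5 TPM. Outside the list, EPSTI1, whose start region holds ISRE letters, was lower on every scaling. Other examined genes of the list were not counted. ISG15 was 9.05, 8.17, 2.24 and 14.5 TPM and IRF1 12.5, 13.3, 3.74 and 13 TPM. In both genes MCF10DCIS had the lowest value, and MCF10CA1a was near or above the precursor lines. BST2 lies on chromosome 19 from 17402939 to 17405648 (GRCh38), next to BISPR, a long non-coding RNA that starts beside it on the other strand, at 0.135, 0.299, 2.54 and 3.23 TPM. The fatty acid transporter gene SLC27A1 (1.92, 2.59, 12.5 and 11.4 TPM) completed a run in which 3 of 4 examined genes were higher. The run was drawn to begin and end at a higher gene, which makes this share high by construction.

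APOBEC3 genes encode cytidine deaminases that act on single-stranded DNA and form a cluster on chromosome 22. Neighbouring members APOBEC3F (0.0106, 0.0400, 7.06 and 8.02 TPM) and APOBEC3G (0.0352, 0.225, 10.5 and 13.4 TPM) were higher, with gaps of 2.95 and 3.23. APOBEC3B was 6.72, 11.7, 4.05 and 15 TPM and APOBEC3C 13.9, 38.9, 45.5 and 43.5 TPM, and neither was counted. The other members did not reach 1 TPM in any line and were not examined. Of these, APOBEC3D, at 0.0160, 0.0827, 0.405 and 0.542 TPM, was likewise near 0 in both precursor lines. Similar copies make single values of this family uncertain.

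Basal genes went both ways. Of 26 examined basal and myoepithelial genes, 5 were higher and 2 lower (26.9% in all), against 2.27% of all genes. The list's median difference of -0.21 was close to that of all genes. The nerve growth factor receptor gene NGFR was 0.162, 0.323, 32.6 and 19.3 TPM (gap 3.94). ITGB4, the integrin chain of hemidesmosomes, was 72.9, 136, 563 and 330 TPM, and FAT2, an atypical cadherin, 0.0231, 2.99, 8.31 and 7.39 TPM. Among keratins, KRT6B (70.8, 17.9, 405 and 256 TPM) and KRT17 (459, 227, 971 and 1046 TPM) were higher. KRT14, the partner of KRT5 in basal cells, was lower at 57.8, 24.6, 6.62 and 4.75 TPM (gap -1.75), as was the peptidase gene MME at 7.01, 3.74, 0.340 and 0.0415 TPM. KRT5 was 768, 592, 643 and 126 TPM and KRT6A, a near copy of KRT6B, 488, 364, 311 and 78.2 TPM, and neither was counted. The gene of the basal transcription factor p63, TP63, was 0.901, 4.81, 6.22 and 10.7 TPM, with a gap of 0.31. Sequence shared among type I and type II keratins makes single keratin values uncertain.

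Luminal, junction and epidermal lists had 2 of 16, 1 of 41 and 3 of 23 genes counted (12.5%, 2.44% and 13%), against 2.27% of all genes. In the luminal list, ALDH1A3, a retinaldehyde dehydrogenase, was higher (69.1, 24.7, 188 and 466 TPM) and MUC1, a membrane mucin, lower (123, 55.1, 11.2 and 0.438 TPM). CLDN1, a tight junction gene, alone was counted in the junction list, at 10.0, 4.08, 21.3 and 51.6 TPM (gap 1.01). CDH1 (149, 21.3, 42.3 and 51.9 TPM) had its carcinoma values between those of the precursor lines. In the epidermal list, where between 2 and 5 genes were higher over the scalings, SPRR1B (3.99, 1.99, 10.8 and 14.4 TPM) and SPRR2D (0.898, 1.83, 6.81 and 10.7 TPM) were higher and the protease gene KLK7 lower at 223, 8.27, 0.122 and 0.172 TPM. With S100A9 (9.19, 3.95, 32.9 and 62.5 TPM), a calcium-binding alarmin, the SPRR genes made up 3 of the 4 examined genes of their stretch on chromosome 1. That stretch too was drawn to begin and end at a higher gene. The transglutaminase gene TGM2 (15.7, 5.67, 42.4 and 46.7 TPM) was also higher.

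Matrix genes were counted singly. SPARC, a secreted collagen-binding protein, was 0.203, 1.22, 92.9 and 31.7 TPM (gap 3.88), and MCF10DCIS had the highest value. COL16A1 was 0.767, 1.24, 19 and 24.1 TPM and COL27A1 0.00923, 0.310, 2.02 and 3.21 TPM. With SPARC they made 3 of 35 collagen, laminin and matricellular genes higher (8.57%) and 0 lower, against 0.954% and 1.32% of all genes. On other scalings up to 4 of the list were higher and up to 1 lower. COL9A3, a collagen gene outside that list, was also higher at 0.109, 0.223, 3.54 and 5.62 TPM (gap 1.89). PLAT, tissue plasminogen activator, was 0.619, 10.9, 113 and 294 TPM (gap 3.27), while PLAU, urokinase, was 6.19, 13.6, 7.07 and 117 TPM and not counted. The hyaluronan synthase gene HAS3 was 0.248, 2.52, 16.4 and 38.7 TPM. FKBP10 and P3H4, neighbours on chromosome 17 whose products act on newly made collagen, were 0.122, 8.37, 30.0 and 67.7 TPM and 3.02, 7.62, 22.4 and 31.1 TPM. PLOD1, a collagen lysyl hydroxylase, was lower at 81.2, 76.7, 25.4 and 34.1 TPM. In SPARC, PLAT, HAS3 and FKBP10 MCF10AT1 already lay above MCF10A.

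**Figure D3:**
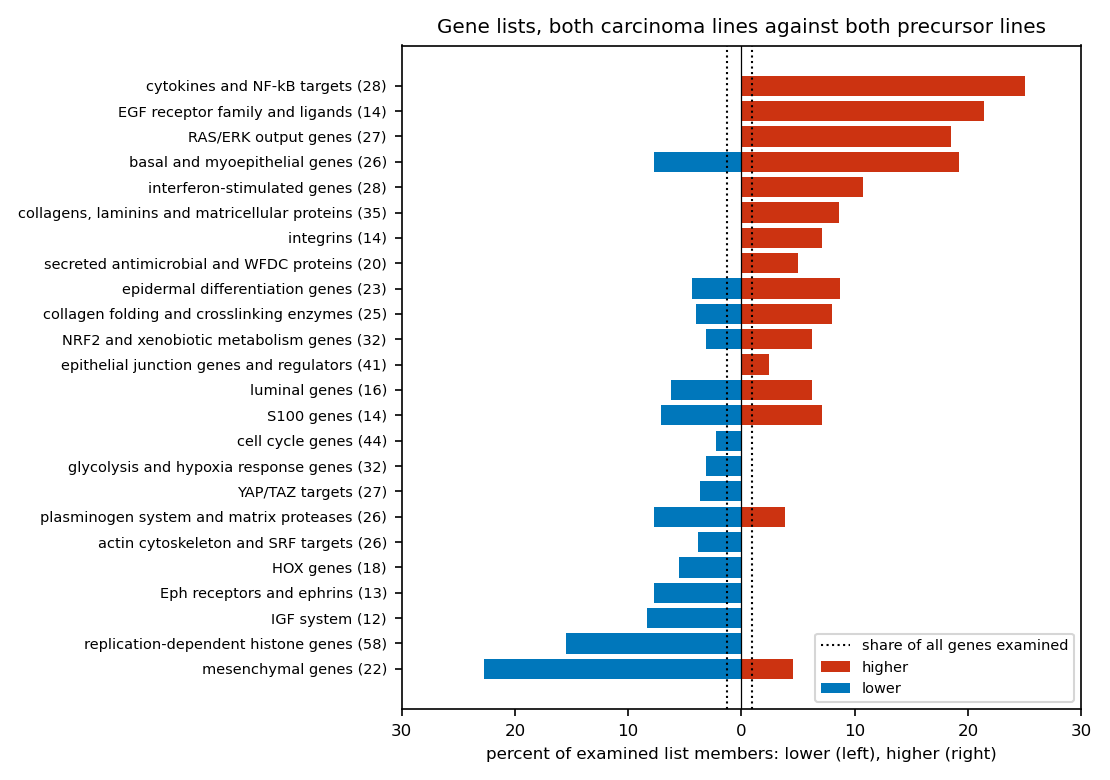
Percent of the examined members of each gene list (number in brackets) that were higher (red, right) or lower (blue, left) in both carcinoma lines, for lists with at least 10 examined members and at least 1 counted, leaving out the lists drawn up after the values were seen; dotted lines mark 0.954% and 1.32%, the shares over all genes examined. Cytokine and NF-kB targets reach 25% higher, and of the lists plotted, mesenchymal and histone genes have the longest bars on the lower side.

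On the lower side the most marked pair of neighbours was FLNA and EMD on the X chromosome. FLNA encodes filamin A, which crosslinks actin filaments, and was 132, 236, 2.18 and 3.47 TPM (gap -4.89). EMD encodes emerin, a LEM-domain protein of the inner nuclear membrane, and was 24.5, 28.9, 0.0750 and 0.0538 TPM (gap -4.57). FLNA lies from 154348524 to 154374638 on the minus strand and EMD from 154379197 to 154381523 on the plus strand (GRCh38), 4558 bases apart. Within 500 kb of the EMD start, 22 protein-coding genes were examined and 3 were lower. The other lower gene, MPP1, was 2.42, 5.68, 0.557 and 0.231 TPM and was not counted on every scaling. In the remaining 19 the difference between pair means lay between -0.78 and 0.32 and no line fell below 2.63 TPM. RPL10, which starts 10.8 kb beyond the EMD start, was 1028, 1237, 970 and 1113 TPM, and DNASE1L1, the next gene, 12.5, 8.41, 9.81 and 13.4 TPM. Beside FLNA, EMD and MPP1, the gap of no neighbour exceeded 0.39 in size. LMNA, which encodes A-type lamins, was 359, 461, 408 and 344 TPM. Of the 17 examined filamin, lamin and LEM-domain genes only FLNA and EMD were counted, on every scaling.

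**Figure D4:**
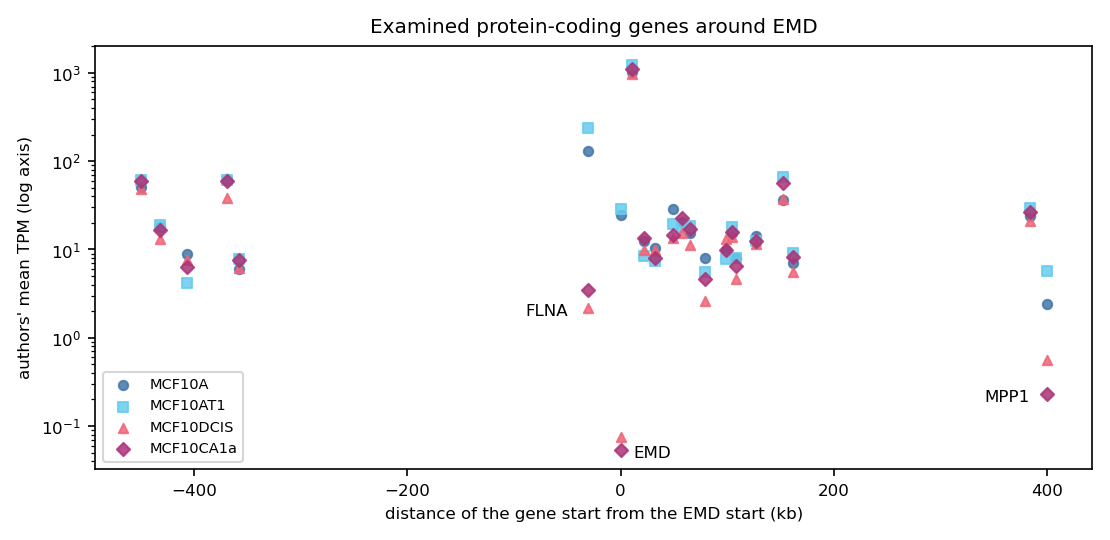
Mean TPM (log axis) of the 22 examined protein-coding genes within 500 kb of the EMD start, by distance in kb; each symbol is the authors' mean of 1 line. FLNA and EMD lie low in both carcinoma lines, at 2.18 and 3.47 TPM and to 0.0750 and 0.0538 TPM, and MPP1 is the other lower gene, at 0.557 and 0.231 TPM in the carcinoma lines.

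Other genes of large gap were present in both precursor lines and close to 0 in both carcinoma lines. VSTM2L, which encodes an immunoglobulin-domain protein, was 147, 43.6, 0.191 and 0.204 TPM (gap -5.21). MSLN, mesothelin, was 92.0, 12.3, 0.109 and 0.133 TPM, and LCP1, the actin bundler L-plastin, 15, 25.9, 0.501 and 0.585 TPM. TOR4A was 11.7, 12.2, 0.223 and 0.328 TPM and the oestrogen sulfotransferase gene SULT1E1 10.3, 11.6, 0.514 and 0.0230 TPM. TENT5B, a poly(A) polymerase, was 29, 11.4, 0.511 and 0.321 TPM, and KCNIP3, a calcium sensor of potassium channels, 12.7, 11.2, 0.924 and 0.466 TPM. In all of these the carcinoma lines were under 1 TPM. EMP3 (28.3, 55.3, 2.51 and 1.25 TPM), METTL7A (19.4, 24.5, 1.92 and 0.677 TPM) and CHN1 (24.6, 18.2, 2.27 and 0.882 TPM) kept a low level in MCF10DCIS. MTND2P28, at 55.3, 74.9, 8.22 and 1.78 TPM, is a nuclear copy of a mitochondrial gene and may take reads from it, so its value is uncertain.

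FTH1, the ferritin heavy chain that stores iron, was the most abundant lower gene at 5236, 2746, 625 and 647 TPM (gap -2.08). Its partner FTL was 214, 489, 124 and 374 TPM, with overlapping pairs. FTH1 has many processed copies in the genome that can take its reads. Of 11 examined genes of iron storage and transport, FTH1 alone was counted. ANPEP, aminopeptidase N, was 339, 287, 48.5 and 20.3 TPM, and the lysosomal protease gene CTSB 141, 130, 33.2 and 50.6 TPM. Another lysosomal protease gene, CTSC, was higher at 25.5, 66, 138 and 166 TPM.

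Mesenchymal genes were counted lower more often than higher. Of 22 examined, 5 were lower and SPARC alone higher (27.3% in all), against 1.32% lower and 0.954% higher of all genes. The median difference of the list was -1.19, and its lower count ranged from 3 to 7 over the scalings. S100A4 was 72.6, 37.9, 5.87 and 5.24 TPM and FAP, a surface protease, 15.8, 7.85, 0.640 and 1.71 TPM. The transcription factor gene TWIST1 was 19.6, 23.6, 4.45 and 2.73 TPM. ZEB2 (1.34, 7.70, 0.111 and 0.0264 TPM) and FOXC2 (1.65, 5.59, 0.209 and 0.0540 TPM) were just past the threshold and were not counted on every scaling. VIM, at 4.56, 516, 213 and 74.1 TPM, had both carcinoma lines between the precursor lines. FN1 was 5.03, 303, 2.01 and 3.89 TPM and the proteoglycan gene DCN 0.163, 134, 0.142 and 0.126 TPM. In these genes MCF10AT1 stood apart from the other 3 lines, and the gaps were -0.30 and -0.03.

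Genes known to be induced by glucocorticoids were among the lower ones. Of 21 examined genes of a list drawn up after the values were seen, 5 were lower (23.8%) and 0 higher, against 1.32% and 0.954% of all genes. Over the scalings between 4 and 6 of the list were lower, and its median difference was -0.94. Because the list was chosen with its members in view, this is a description. ZBTB16, a transcriptional repressor, was 11.1, 13.2, 0.114 and 0.0365 TPM (gap -3.44). FKBP5, a co-chaperone of the receptor, was 102, 129, 30.2 and 4.0 TPM (gap -1.72) and the kinase gene SGK1 39.5, 18, 4.99 and 3.05 TPM (gap -1.67). KLF9 was 7.02, 9.94, 1.39 and 1.01 TPM. DUSP1, a phosphatase of MAP kinases, was 19, 52.0, 6.64 and 4.68 TPM and was not counted on every scaling. Other members did not separate the pairs. TSC22D3 was 31.9, 42.9, 26.3 and 2.17 TPM, PER1 20.4, 25.7, 19.2 and 10.9 TPM, and ANGPTL4 25.7, 68.4, 57.9 and 0.173 TPM. In TSC22D3 and ANGPTL4 MCF10CA1a alone was far below the other lines.

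Of the metallothioneins, small metal-binding proteins encoded in a cluster on chromosome 16, MT1E was lower at 309, 894, 22.2 and 31.4 TPM (gap -3.25). MT1F was 11.2, 4.08, 1.48 and 0.585 TPM, with a gap of -1.03 that passed the threshold on some scalings only. The most abundant member, MT2A, was 2877, 7395, 3395 and 973 TPM and MT1X 47.5, 184, 80.1 and 29.2 TPM, with overlapping pairs. Close similarity within this family makes single values uncertain.

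Of 58 examined replication-dependent histone genes, 9 were lower (15.5%) and 0 higher, against 1.32% and 0.954% of all genes. The list's median difference was -0.75, and between 6 and 9 of its genes were lower over the scalings. The pairs did not overlap downward in 42 of the 58 (72.4%), against 34.8% of all examined genes; on rescaled TPM they did not in 32 (55.2%), against 25.6%. H3C1 was 186, 201, 42.3 and 1.14 TPM, H2BC3 25.1, 37.3, 6.0 and 0.0826 TPM, and the linker histone gene H1-5 450, 241, 115 and 0.731 TPM. In these 3 MCF10CA1a was far below MCF10DCIS. H2BC14 (89.0, 85.6, 11.4 and 25.8 TPM) and H2AC16 (108, 112, 26.7 and 45.5 TPM) were lowest in MCF10DCIS. H1-2, at 552, 523, 308 and 561 TPM, was not counted. H1-5 was not counted on every scaling. Near-identical copies of these genes share reads, so single values are uncertain. Structural and small RNAs took their largest share in MCF10DCIS, and the part of this in the result was not tested. Of 44 examined cell cycle genes 1 was counted (2.27%), the same share as over all genes (2.27%). It was CCND3, a G1 cyclin, which was lower at 68.5, 54.2, 22.4 and 13.8 TPM and not counted on every scaling.

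Several lists had no counted gene on the deposited scale, where 2.27% of all genes were counted, so that none is near the background for most of these sizes. These were 54 genes of histone methylation and Polycomb, 40 ribosomal protein genes, 29 genes each of the p53 family with its targets and of TGF-beta signalling, 25 cholesterol biosynthesis genes, 24 WNT pathway genes, 19 Notch pathway genes, 19 genes of antigen presentation by MHC class I, 13 mitochondrially encoded genes, 12 AP-1 factors and 12 annexins. With rescaled TPM, 2 Notch pathway genes, 1 WNT pathway gene and 1 TGF-beta gene were higher. Cholesterol biosynthesis genes had a median difference of -0.49 without any member passing the threshold, and Notch pathway genes one of 0.38.

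Counted genes were spread over all 22 autosomes and the X chromosome, as the plot by chromosome shows. On the deposited scale chromosomes 22 and 20 had the largest shares of higher genes, with 7 of 316 (2.22%) and 8 of 366 (2.19%). On rescaled TPM chromosomes 4 (18 of 451, 3.99%) and 3 (26 of 705, 3.69%) came before both. Chromosome 22 followed with 3.49%, then chromosome 15 (14 of 415, 3.37%) and chromosome 20 with 3.04%. Chromosome 6 had the largest share of lower genes on both scales, on the deposited one 20 of 667 (3.0%), of which 8 were histone genes; without the histone list 12 of 620 (1.94%) were lower. Chromosome 9 followed with 15 of 547 lower (2.74%). Chromosome 7 had 1 higher gene of 644 (0.155%), and 4 of 641 on rescaled TPM. The median difference between pair means was -0.48 on chromosome 7, -0.46 on 16 and -0.44 on 8, against -0.20 over all genes. Groups of at least 3 genes counted in the same direction within 1 Mb numbered 12, 7 of them higher and 5 lower. This number was not set against a background. Each group was drawn to begin and end at a counted gene, so its share is high by construction. One higher group on chromosome 17 joined ITGB4, UBALD2 (12.5, 24.5, 68.4 and 52.5 TPM) and the sphingosine kinase gene SPHK1 (1.58, 3.85, 16.1 and 21.9 TPM). They were 3 of the 18 examined genes of their stretch. One lower group on chromosome 11 joined VWA5A, NRGN, ROBO3 and ROBO4, 4 of the 9 examined genes of their stretch. ROBO3 was not counted on every scaling and ROBO4 was 4.34, 3.95, 0.911 and 0.468 TPM.

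**Figure D5:**
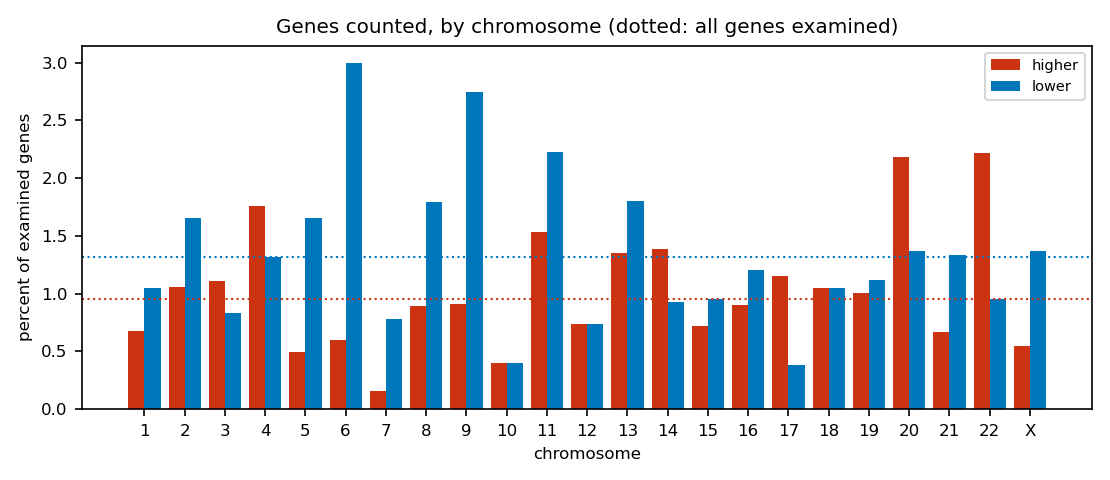
Percent of the examined genes of each chromosome that were higher (red) or lower (blue) in both carcinoma lines; dotted lines mark 0.954% and 1.32%, the shares over all genes. Chromosomes 22 and 20 have the tallest red bars and chromosomes 6 and 9 the tallest blue bars, each from 7 to 20 genes.

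RefSeq start regions (250 bases before and 50 after the start, GRCh38.p14, leaving out chromosome 8) matched 86 of the higher, 118 of the lower and 9743 of all examined genes. The median number of CpG dinucleotides was 20.5 in higher and 20.0 in lower genes, against 26.0 in examined genes. Matches were sought on both strands. The ETS letters CCGGAA were in 12.8% of higher and 12.7% of lower start regions, against 31.1% of examined genes and 17.6% of all 27303 regions. The TATA letters TATAAA were in 6.98% of higher and 16.9% of lower regions, against 5.72% of examined genes; 5 of the 20 lower genes with a match were histone genes. AP-1 letters were in 9.30% of higher and 7.63% of lower regions, against 4.58%, and NF-kB letters in 2.33% and 2.54%, against 1.57%. For ISRE letters the shares were 4.65% and 5.93%, against 2.76%. TEAD letters (GGAATG) were in 9.30% and 13.6%, against 10.6%, and E-box letters (CACGTG) in 11.6% and 7.63%, against 10.2%. These are shares of genes chosen for their level and are given without a test.

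The lines of a pair did not always lie close together. Within 1 log2 unit of each other in both pairs were 85 of the 125 higher and 115 of the 173 lower genes. Lines that are both under 1 TPM cannot differ by 1 on the log2(TPM + 1) scale. That held for the pair with the lower values in 50 of the higher and 74 of the lower genes. The counts of differences within a pair are thus partly set by the scale. In 24 higher genes the carcinoma lines differed by at least 1 and in 22 of these, IL1B and CXCL8 among them, MCF10CA1a was the higher line. In 15 lower genes they differed by that much and in 11 of these, such as MUC1 and FKBP5, MCF10DCIS was the higher line. On deposited TPM MCF10CA1a was thus the more distant line in most members whose carcinoma values differed by at least 1. With differences of any size, MCF10CA1a was above MCF10DCIS in 88 of the 125 higher genes, and in 67 of 124 on rescaled TPM. Among the 173 lower genes it was above in 83, and in 60 on rescaled TPM. The precursor lines differed by at least 1 in 26 higher genes, with MCF10AT1 above in 15 and MCF10A above in 11. Among lower genes they did so in 48, with MCF10A above in 36, KLK7 and MSLN among them, and MCF10AT1 above in 12, such as DUSP1 and ZEB2. Over all examined genes the carcinoma lines differed by at least 1 in 7.38% and the precursor lines in 9.26%.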

How the data were processed

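The authors deposited 1 table of TPM for 59427 gene symbols, with 1 column per line holding the mean over its libraries, per the file headers; each column sums to 1000000. Per the submitters' processing notes, STAR, edgeR and the build hg38 were used; how strand was handled, which program gave the TPM, the annotation and all versions are not given in the labels or headers. From this table the log2(TPM + 1) values, the gaps, the counts and the medians were computed with Python 3.11.15, NumPy 2.4.6 and pandas 2.3.3. The calculation was tested on simulated tables. For rescaled TPM, structural and small non-coding RNAs, ribosomal protein genes and mitochondrially encoded genes were left out and each column was brought to 1000000. Median-of-ratios scaling and quantile normalization were the other scalings, and "on every scaling" means these 3 and the deposited TPM. Positions and gene classes are from GENCODE release 29 (GRCh38, the build hg38 denotes), in which 56574 symbols were found, 54529 by the symbol itself. TPM depends on all other genes of a library, and it keeps no count of reads.

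The comparison and the 43 gene lists were chosen with earlier results of these data known; 6 further lists (glucocorticoid-induced, metallothionein, APOBEC3, interleukin-1, filamin with lamin and LEM-domain, iron) were added after the values were seen. Named genes were HRAS, CDH1, VIM, KRT5, KRT14 and TP63, the 15 genes of largest gap in each direction with at least 10 TPM in both lines of the higher pair, counted and well-known members of the lists, genes next to the threshold, and counted genes within 1 Mb of each other. Those outside this rule (neighbours of EMD, RNVU1-32, TGM2, CTSC, ANPEP, APOBEC3D and most genes of the closing section) were chosen after their values were seen.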

Additional observations from a re-analysis of the deposited data

How the results depend on the processing

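The count of higher genes, 125, was 179 with quantile normalization, 185 with median-of-ratios scaling, 266 with rescaled TPM and 253 with a pseudocount of 0.1. The count of lower genes, 173, was 135, 133, 231 and 353 in the same order. The share of counted genes on the higher side, 41.9%, was 57.0%, 58.2%, 53.5% and 41.7%. A filter of 5 TPM left 98 and 145, and a size of 2 in place of 1 left 25 and 35. The absence of a filter could change neither count, because a gap of 1 already requires 1 TPM. Under all 3 other scalings 124 of the 125 higher and 130 of the 173 lower genes were counted again, and no gene counted in one direction was counted in the other. All 15 higher and 15 lower genes of largest gap were counted under each of the 6 settings with a size of 1. Only the 3 other scalings could have dropped any of them. The filters lay below the level at which these genes were chosen, and a smaller pseudocount can only widen a gap. Of 804 further comparisons, of list counts and single genes with their value under another setting, 60 moved by more than the limit of 1.5 times. A reversal was possible only for the single genes, where 0 were seen. The comparisons without a filter could not move, and lists with 0 counted genes under both settings were held to be the same.

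Depth is unknown, so no level near 0 has a detection limit. Leaving out each library could not be run on means. No paired analysis was possible because the table holds 1 mean per line and no values per library.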

Other observations

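Long non-coding RNAs made up 11 of the 125 higher and 4 of the 173 lower genes, 8.80% and 2.31%, against 6.94% of examined genes. MIR205HG, the host transcript of an epithelial microRNA, was the most abundant of them at 27.2, 41.0, 113 and 112 TPM in MCF10A, MCF10AT1, MCF10DCIS and MCF10CA1a. FIRRE, an X-linked nuclear RNA, was 0.25, 0.0620, 7.58 and 7.78 TPM, and LINC00973 1.05, 1.80, 8.10 and 30.0 TPM. On the lower side IGFL2-AS1 was 37.2, 2.92, 0.0129 and 0.0128 TPM.

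Of 332 examined ZNF genes, which mostly encode DNA-binding zinc finger proteins, 7 were lower (2.11%) and 0 higher, against 1.32% and 0.954% of all genes. On chromosome 19, where many such genes lie in clusters, 4 of 147 were lower. These were ZNF44 (2.15, 1.72, 0.00266 and 0.00380 TPM), ZNF160 (1.95, 2.16, 0.00127 and 0.0168 TPM), ZNF493 (1.56, 1.17, 0.00390 and 0.00249 TPM) and ZNF558 (2.60, 2.57, 0.00705 and 0.122 TPM). In each, both precursor lines held between 1.17 and 2.60 TPM and both carcinoma lines no more than 0.122 TPM.

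Genes of other kinds were also counted. The gap junction gene GJA1 was 0.0101, 0.0476, 5.77 and 5.53 TPM, the transcription factor gene BCL11A 0.169, 0.866, 7.34 and 6.77 TPM, and CDH19, a type II cadherin, 0.0284, 0.0129, 9.56 and 7.24 TPM. WWTR1, which encodes the YAP-related coactivator TAZ, was 16.9, 26.8, 70.7 and 82.7 TPM. FSTL1, a secreted glycoprotein gene, was 34.9, 34.1, 1.98 and 10.2 TPM. PINK1, a mitochondrial kinase, was 66.9, 29.3, 5.42 and 9.03 TPM and its neighbour CDA, cytidine deaminase, 43.8, 7.43, 0.189 and 0.285 TPM. Pairs of counted genes with no examined gene starting between them numbered 24, of which 14 were higher and 10 lower.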
